A study of Mus musculus with 4 samples.

Results

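The clustered histone genes are the protein-coding genes of GENCODE release M21 (a mouse gene annotation) whose symbols begin with Hist1h, Hist2h, Hist3h or Hist4h. There were 67 of them among 21938 protein-coding genes. Hist1h had 54 members on chromosome 13, Hist2h 10 on chromosome 3, Hist3h 2 on chromosome 11 and Hist4h 1 on chromosome 6. By class they were 6 H1, 18 H2A, 18 H2B, 12 H3 and 13 H4 genes. The members were taken by symbol, not by a measured value.

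Binding of Foxr2 was mapped by CUT&RUN, in which an antibody brings a nuclease to a protein so that the DNA beside it is cut free and sequenced. The antibody recognised the V5 tag. The Foxr2_p53LOF group held 2 replicates of a neurosphere line from a mouse brain tumour, made by in utero electroporation of FOXR2 with a C-terminal V5 tag, under the ubiquitous CAG promoter, together with CRISPR loss of p53. The V5_control group held 2 replicates from a separate electroporation model without the tag, given as genotype H3.3G34R, so that the groups differed in more than the tag. All 4 libraries came from the C57BL/6J strain and from cells fixed in 0.1% formaldehyde for 1 minute. The Foxr2_p53LOF replicates came from a single line. The methods of the study speak of control cell lines in the plural, without saying which line gave which replicate. Nothing says that replicates were separate cultures, so their spread may be technical. The H3.3G34R change is in a variant H3 gene outside the clusters.

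Histones are the proteins around which DNA is wound: H2A pairs with H2B, H3 pairs with H4, and the linker histone H1 binds where DNA enters and leaves the particle. The clustered genes supply most of these proteins during DNA replication, when they are transcribed together in a nuclear body organised by Npat, and their mRNAs end in a stem-loop bound by Slbp in place of a poly(A) tail. FOXR2 is a forkhead transcription factor that is silent in most adult tissues and is switched on in central nervous system neuroblastoma.

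The genes lay in 7 blocks, separated by at least 100 kb without a member. On chromosome 13 the first block (chr13:21715763-21837530) held 18 members in 122 kb, the second (chr13:22035164-22043676) 5 members in 8.51 kb, the third (chr13:23531050-23764406) 29 members in 233 kb and the fourth (chr13:23933773-23934851) 2 members in 1.08 kb. Between the second and the third lay 1487 kb. The Hist2h members filled 50.3 kb (chr3:96219865-96270132), the Hist3h pair 7.91 kb (chr11:58948920-58956830), and Hist4h4 stood alone (chr6:136801553-136804415). Of the 67 starts, 28 (41.8%) had another protein-coding start within 1 kb, against 13.3% of all protein-coding genes. All positions are in GRCm38, the mm10 build, counted from 1.

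The following sequences show the start sites of contrasting members: a gene of a strongly enriched stretch with several classic histone promoter motifs, the H1 gene with the ETS letters, the H4 gene with the forkhead letters, a near-identical pair without a peak, and a testis-type gene without a peak. Each runs 5′ to 3′ on the gene's strand, from 250 bases before to 50 bases after the 5′ end of the gene record, read from the GRCm38.p6 RefSeq genome. Capitals mark matches, on either strand, to the motifs whose letters and counts are given further on (the CCAAT box, octamer, H1 box, TATA box, ETS core and forkhead motif).

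Hist1h2bm (chr13:21721794-21722093, plus strand; folds of 24.3 and 31.2): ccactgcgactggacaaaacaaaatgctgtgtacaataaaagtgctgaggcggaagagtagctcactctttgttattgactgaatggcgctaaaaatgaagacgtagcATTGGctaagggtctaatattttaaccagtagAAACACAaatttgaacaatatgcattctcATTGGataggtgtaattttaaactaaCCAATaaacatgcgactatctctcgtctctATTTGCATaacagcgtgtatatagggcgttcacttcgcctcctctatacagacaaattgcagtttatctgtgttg

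Hist1h1e (chr13:23622509-23622808, minus strand; folds of 21.7 and 22.7): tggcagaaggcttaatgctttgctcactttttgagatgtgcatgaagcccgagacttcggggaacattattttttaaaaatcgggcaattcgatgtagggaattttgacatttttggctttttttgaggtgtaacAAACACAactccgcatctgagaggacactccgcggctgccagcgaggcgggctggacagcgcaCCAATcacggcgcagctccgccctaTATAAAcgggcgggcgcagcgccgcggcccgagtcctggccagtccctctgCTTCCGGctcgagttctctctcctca

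Hist4h4 (chr6:136804366-136804665, minus strand; folds of 14.1 and 18.1): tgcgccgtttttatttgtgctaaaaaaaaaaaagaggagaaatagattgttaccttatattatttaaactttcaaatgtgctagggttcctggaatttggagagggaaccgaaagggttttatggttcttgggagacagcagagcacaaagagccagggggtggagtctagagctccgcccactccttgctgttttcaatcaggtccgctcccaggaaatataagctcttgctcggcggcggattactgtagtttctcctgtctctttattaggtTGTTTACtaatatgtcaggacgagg

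Hist1h2bq (chr13:21810148-21810447, minus strand; no peak): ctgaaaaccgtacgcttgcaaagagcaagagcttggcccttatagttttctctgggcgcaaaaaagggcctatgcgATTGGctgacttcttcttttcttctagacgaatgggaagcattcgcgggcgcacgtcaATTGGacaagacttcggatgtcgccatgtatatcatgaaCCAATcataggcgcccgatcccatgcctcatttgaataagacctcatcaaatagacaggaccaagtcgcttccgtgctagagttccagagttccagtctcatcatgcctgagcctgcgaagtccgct

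Hist1h2br (chr13:21833493-21833792, plus strand; no peak): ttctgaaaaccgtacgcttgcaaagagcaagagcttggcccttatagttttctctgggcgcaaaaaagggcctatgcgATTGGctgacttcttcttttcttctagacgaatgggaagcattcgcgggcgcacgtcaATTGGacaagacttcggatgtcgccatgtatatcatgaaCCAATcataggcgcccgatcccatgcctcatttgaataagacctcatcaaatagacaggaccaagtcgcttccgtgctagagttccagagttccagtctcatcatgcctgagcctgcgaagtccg

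Hist1h2ba (chr13:23934107-23934406, minus strand; no peak): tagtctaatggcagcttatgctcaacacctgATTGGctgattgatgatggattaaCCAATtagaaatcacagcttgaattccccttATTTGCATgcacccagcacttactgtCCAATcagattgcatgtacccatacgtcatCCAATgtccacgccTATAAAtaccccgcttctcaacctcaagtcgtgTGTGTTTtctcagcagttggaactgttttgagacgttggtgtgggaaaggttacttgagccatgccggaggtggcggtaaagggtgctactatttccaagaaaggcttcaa

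Most clustered histone genes lay under a Foxr2 peak in both Foxr2_p53LOF replicates and none under a control peak. A member was counted where a peak reached to 1 kb or less from the first base of any of its coding transcripts. In Foxr2_p53LOF replicate 1, 61 of 67 members (91%) had a peak, against 53.5% of all protein-coding genes. In replicate 2 the same 61 members had one, against 54.4%. In both replicates together the shares were 91% and 51.5%. In V5_control replicate 1 the count was 0 members, with 0.123% of all genes, and in replicate 2 it was 0, with 0.0866%. The difference of 61 members between the groups had an exact permutation p of 0.33 (two-sided), the smallest that 2 against 2 libraries can give. Nearest to any member was a control peak 4808 kb away from Hist3h2ba, although the control lists held 10 and 5 peaks on chromosome 13. The lowest folds in the control lists were 4.08 and 4.87. Folds are relative to the background of their own library, so these values do not show how readily the control libraries would give a peak at a member.

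The count was also taken by whether another start lay close, with no test of the difference. Of the 28 with another start within 1 kb, 22 (78.6%) had a peak in both replicates, against 85.5% of non-histone genes with such a neighbour. Of the 39 with no other start within 1 kb, all 39 had one, against 46.2% of such non-histone genes. Counting a member only where the summit, the highest point of a peak, fell within 1 kb of its own start left 28 of 67 members (41.8%), and 48.1% of all genes passed the same rule. By overlap the histone share thus stood above that of all genes, and by summit it stood below. The part of peak width in the overlap share was not tested.

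**Figure D1:**
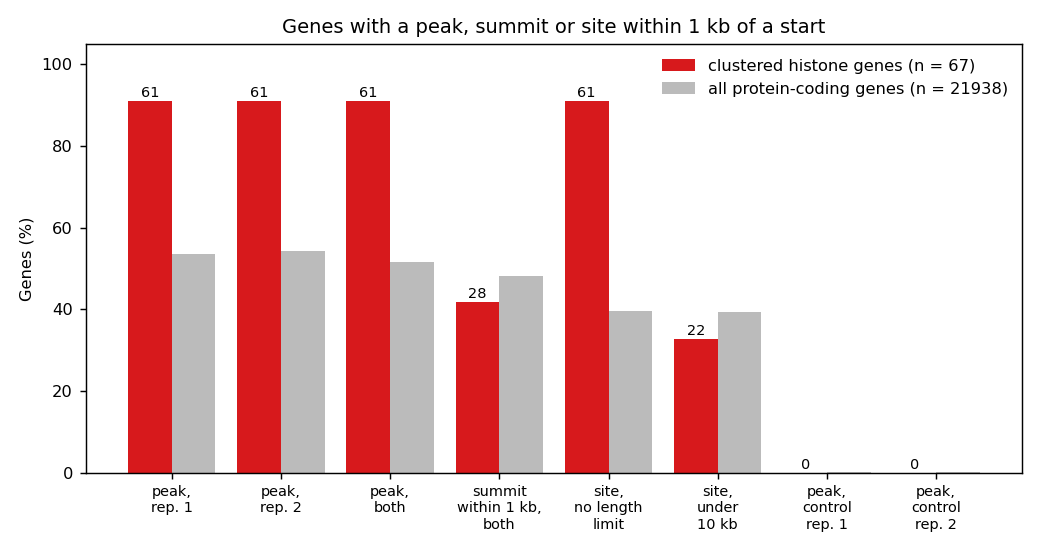
Share of genes (%) with a peak, summit or site within 1 kb of a start, for the 67 clustered histone genes (red, with the number of members above each bar) and all 21938 protein-coding genes (grey). The members stand at 91% against 51.5% for a peak in both replicates, at 41.8% against 48.1% for a summit, and at 32.8% against 39.4% for a site shorter than 10 kb.

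Enrichment at the histone genes was high for a promoter. A fold is the number of fragments at the summit plus 1, over the background of the library plus 1, so it compares a position with its own library. Taking the highest fold at each member, the 61 members with a peak ran from 7.07 to 26.5 in replicate 1 with a median of 19.9, where the median of all genes with a peak was 8.84. In replicate 2 they ran from 7.23 to 34.8 with a median of 26.0, where that of all genes was 9.86. These medians stood at the 92.8 and 94 percentiles of genes with a peak. Since neighbours share peaks, each peak was also counted once: the 31 distinct peaks of replicate 1 had a median fold of 16.3 against 7.95 for all promoter peaks, and the 25 of replicate 2 had 21.7 against 8.87.

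The members' chromosomes were compared by their other promoter peaks. Promoter peaks on chromosome 13 outside the members had a median fold of 10.6 in replicate 1 and 11.8 in replicate 2, the highest of the 21 chromosomes in both, and chromosome 11 ranked next. Chromosome 3 (9.28 and 10.2) ranked 4 and 5, and chromosome 6 (8.84 and 9.86) ranked 7 and 6. With folds divided by the median of their chromosome, the members' median was 1.79 and 2.03 times that of all genes, against 2.25 and 2.63 times undivided. Within chromosome 13, the median of the histone peaks stood at the 83.4 and 88.5 percentiles of promoter peaks. The part of the chromosome level in the members' folds was not tested beyond this division.

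Merging the peaks of both replicates gave 25 stretches, of which 24 had a peak in each replicate, 16 covered at least 2 members and 1 covered 9. Replicate 2 had the higher fold in 22 of the 24. The replicates placed their summits a median of 150 bp apart, and in 13 stretches they were within 200 bp of each other. Of the 49 top summits, 36 lay within 500 bp and 44 within 1000 bp of the start of some member. Since the stretches were built from peaks reaching to 1 kb or less from a member start, this closeness is partly set by selection. Ranked by the lower fold of the 2 replicates, the stretches ran from 5.30 to 25.6 with a median of 17.7. Of them, 21 stood above the median gene with a peak and 12 above the 90th percentile.

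The highest-ranked stretch held Hist1h4h, Hist1h2af and Hist1h3g, with folds of 25.6 in replicate 1 (57 fragments, 95% counting interval 19.5 to 33.1) and 33.8 in replicate 2 (102 fragments, 27.7 to 41). The summits lay 539 and 468 bp after the start of Hist1h4h. Next came the 9 members from Hist1h1c to Hist1h1a, with folds of 24.7 (18.8 to 32.1) and 34.8 (28.5 to 42.1). There the first replicate had 6 peaks and the second a single peak of 27146 bp, with both summits between Hist1h3c and Hist1h2bb. The intervals of neighbouring stretches overlapped, so their order was not resolved.

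**Figure D2:**
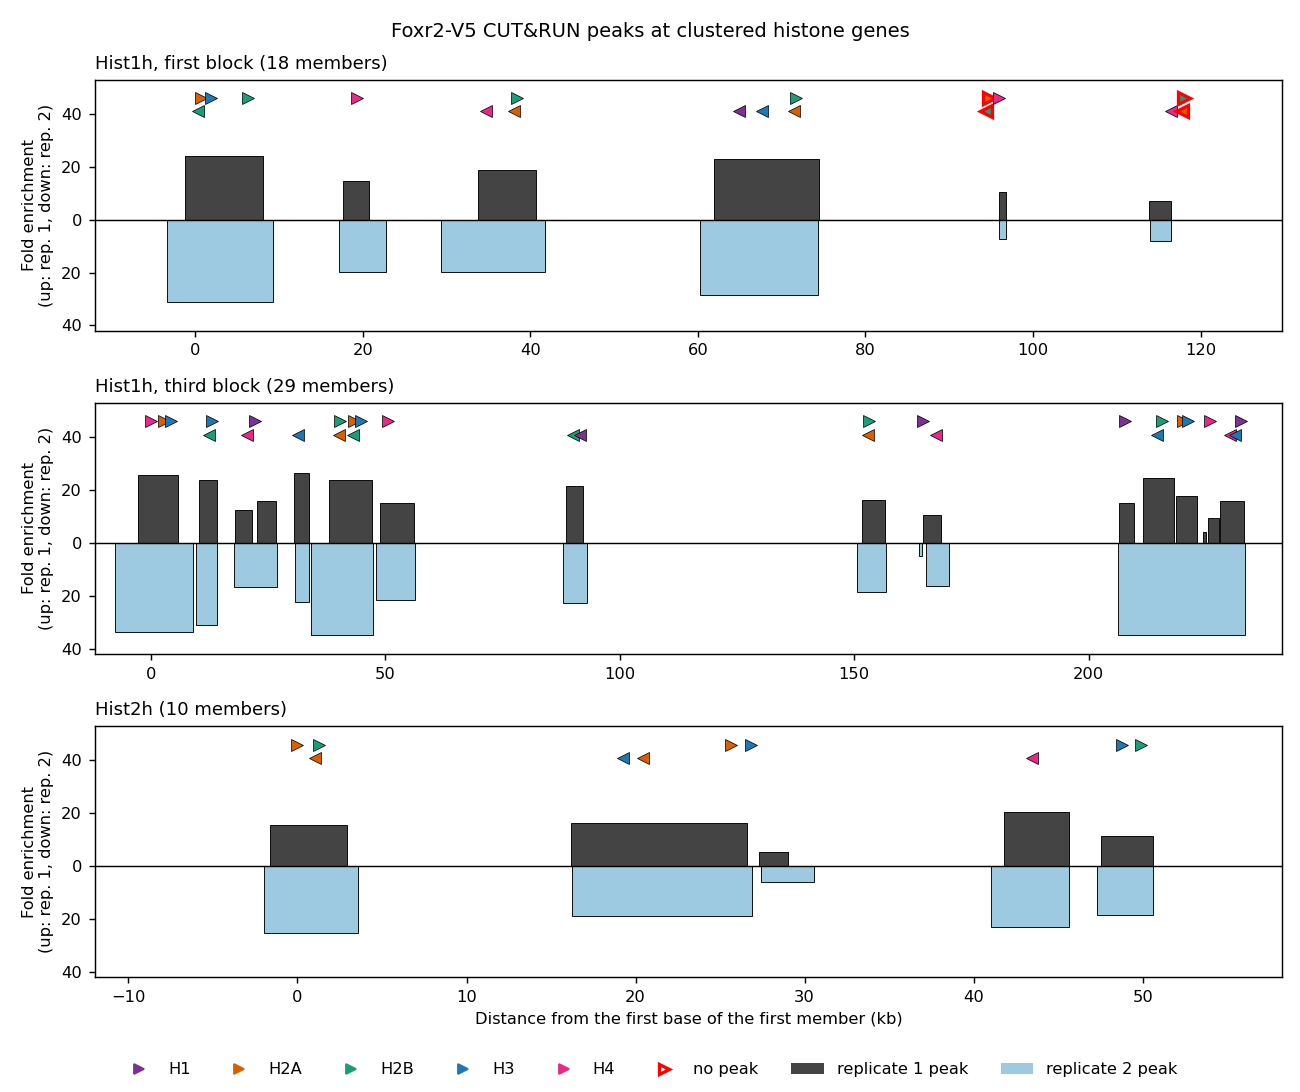
Foxr2 peaks in the 3 blocks with at least 10 members, by distance in kb from the first base of the first member of each block. Bars up are peaks of Foxr2_p53LOF replicate 1 and bars down are peaks of replicate 2, with the height giving the fold, and triangles mark members by class and strand, those in a red outline having no peak. Single bars cover runs of members in both replicates, and 4 members of the first block have none over their start.

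Linker histone genes had a peak in both replicates in 6 of 6 cases, with median folds of 15.9 and 25.6. Beside this and the other class counts, 51.5% of all protein-coding genes had a peak in both replicates. Hist1h1b, the H1.5 gene, had folds of 23.0 and 28.6, from a peak with its summits about 7 kb upstream, beside the Hist1h2an-Hist1h2bp pair. Hist1h1e, the H1.4 gene, had 21.7 and 22.7, shared with Hist1h2be and with summits 1067 and 1580 bp after its own start and nearer to that of Hist1h2be. The Hist1h2be start is the 5′ end of a long record (chr13:23583670-23621124, minus strand). Whether the H2B transcript begins there was not tested. Hist1h1d, the H1.3 gene, had 15.9 and 16.8, from peaks with summits 2661 and 2711 bp after its start, the second shared with Hist1h4f. That start is also the 5′ end of a long record (chr13:23553262-23560686), and the 300 bases around it had the lowest GC content of any member, 30.7%. Whether the H1.3 transcript begins there was not tested. Hist1h1c, the H1.2 gene, had a fold of 15 in a peak of its own in replicate 1, with the summit 282 bp before its start, and lay under the 27146 bp peak in replicate 2. Only that first value can be set to Hist1h1c itself. Hist1h1a, the H1.1 gene, had 15.9 and 34.8, its replicate 1 peak being shared with Hist1h4a and Hist1h3a and the summits lying 1569 and 17249 bp before its start.

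H2A and H2B genes had a peak in 15 of 18 cases each, and in the same 3 head-to-head pairs both partners lacked one. There were 12 such pairs, all of 1 H2A and 1 H2B gene transcribed away from each other, with starts 176 to 306 bp apart. A peak covered 9 pairs in both replicates. Median folds were 19.9 and 26.0 for the H2A genes and 23.0 and 26.0 for the H2B genes. As an example with a site of its own, the Hist1h2ac-Hist1h2bc pair had folds of 16.3 (11.6 to 22.5) and 18.7 (14.2 to 24.2), with summits within 714 bp of both starts. The Hist2h2ac-Hist2h2be pair had 15.5 and 25.3. Of the other H2B genes, Hist1h2bh shared with Hist1h3f a peak of 3819 and 4508 bp with folds of 23.9 and 31.2.

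H3 genes had a peak in 12 of 12 cases, with the highest medians by class in both replicates, 23.4 and 31.2. Hist1h3e had a peak of its own, with folds of 26.5 (59 fragments, 20.3 to 34.1) and 22.3 (67 fragments, 17.4 to 28.3) and summits 673 and 662 bp before its start. It was the highest fold of any member in replicate 1 and, unlike most, was not higher in replicate 2. Hist2h3b, with Hist2h2bb, had 11.5 and 18.4, the lowest among H3 genes in both. Several H3 folds came from summits nearer to another gene, at Hist1h3h (4565 and 4606 bp from its start), Hist1h3i (4302 and 4222 bp) and Hist1h3g (3833 and 3904 bp). At Hist1h3f the summits lay 5 and 287 bp away. Because classes shared peaks in this way, the class medians were not independent, and their order partly reflects neighbouring genes.

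H4 genes had a peak in 13 of 13 cases, with the lowest medians by class in both replicates, 14.6 and 19.7, and the widest range. Hist1h4h reached 25.6 and 33.8, and Hist2h4 20.3 and 23.0. Hist1h4j had 14.6 and 19.7 in a peak of its own, and Hist4h4, the solitary member, 14.1 and 18.1. At the low end, Hist1h4m had 10.6 (6.88 to 15.7) and 7.23 (4.60 to 10.9), and Hist1h4n had 7.07 (4.15 to 11.4) and 7.88 (5.12 to 11.7). Hist1h4m and Hist1h4n were the lowest members with a peak in replicate 2, and their intervals lay below those of Hist1h4h in both replicates.

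By cluster, median folds were 21.7 and 28.6 at the 48 Hist1h members with a peak, 15.9 and 18.7 at the 10 Hist2h members, 19.9 and 23.7 at the Hist3h pair and 14.1 and 18.1 at Hist4h4. Distinct peaks numbered 24 and 18 at Hist1h, 5 and 5 at Hist2h, 1 and 1 at Hist3h and 1 and 1 at Hist4h. Within Hist1h, the third block held a peak at each of its 29 members and the second at each of its 5, the first at 14 of 18 and the fourth at 0 of 2. The Hist3h peak had its summits 386 and 338 bp before Hist3h2a and more than 5 kb from Hist3h2ba, and Trim17, a ubiquitin ligase gene, starts at the same base as Hist3h2a.

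**Figure D3:**
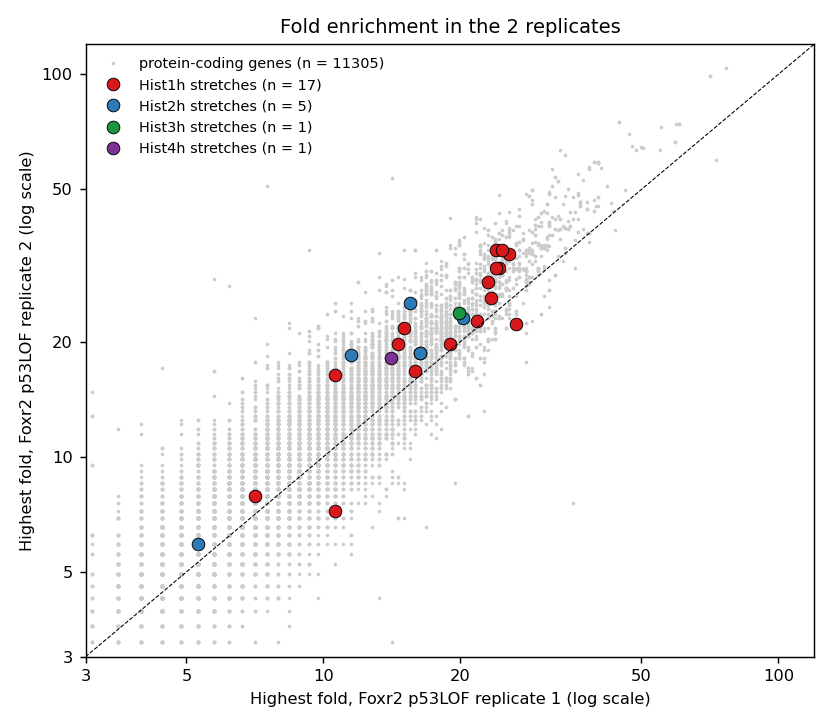
Highest fold in Foxr2_p53LOF replicate 1 against replicate 2 on log axes, for the 11305 protein-coding genes with a peak in both (grey) and the 24 histone stretches with a peak in both (coloured by cluster), with a dashed line where both are equal. The histone stretches run from 5.30 to 25.6 by their lower fold, and 22 lie above the line.

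The histone peaks were mostly long for promoter peaks, and this decided how many members kept a site. Their median length was 4130 bp in replicate 1 against 1642 bp for all promoter peaks, and 5579 against 1926 bp in replicate 2. Of the distinct peaks, 19 and 16 spanned at least 2 members. Replicate 1 had 24 peaks of 10 kb or more, 2 of them (8.33%) at histone starts, covering 8 members. Replicate 2 had 62, of which 9 (14.5%) lay at histone starts and covered 39 members. Its 27146 bp peak over Hist1h1c to Hist1h1a was the third longest of that library, whose longest was 31591 bp. In replicate 1 the longest histone peak, 12565 bp, ranked 11, and the longest of all was 29255 bp. The shortest histone peaks were 592 and 745 bp.

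A reproducible site was a stretch shared by both replicates after the filters in the methods of the study: no overlap with a control peak, −log10 q above 6, fold above 6 and length under 10 kb. With these filters 22 of 67 members (32.8%) had a site, against 39.4% of all genes. Without the length limit, all 61 members with a peak had one (91%), against 39.7%. Of the 65 genes in the whole annotation that lost their site to the length limit, 39 (60%) were clustered histone genes. Replicate 2 carried that loss, since replicate 1 alone left 53 members with a site. By class, 3 of 6 H1, 3 of 18 H2A, 5 of 18 H2B, 3 of 12 H3 and 8 of 13 H4 genes kept a site. Hist1h3e, Hist2h4, Hist1h4j and Hist4h4, each in a peak of its own under 10 kb, were among those that did, while the top-ranked Hist1h4h, Hist1h2af and Hist1h3g did not.

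**Figure D4:**
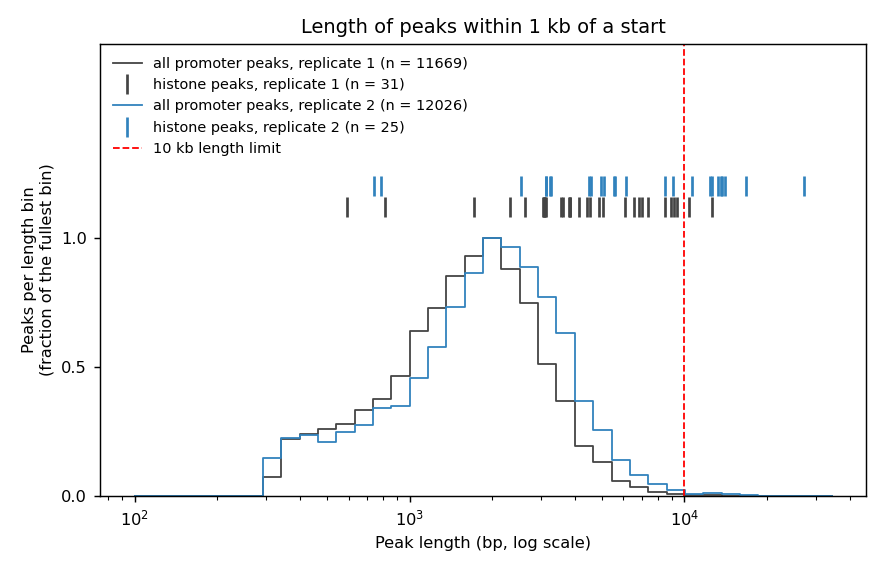
Length of peaks within 1 kb of a protein-coding start (bp, log axis). Lines give all promoter peaks of each Foxr2_p53LOF replicate per length bin as a fraction of the fullest bin, ticks give the 31 and 25 histone peaks, and the dashed line is the 10 kb limit, past which 2 histone peaks of replicate 1 and 9 of replicate 2 lie.

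In total 6 members had no peak in either replicate: the pairs Hist1h2bq-Hist1h2ao and Hist1h2ap-Hist1h2br at the far end of the first block, and Hist1h2ba-Hist1h2aa, the testis-type pair that makes up the fourth block. For the first 4, the nearest peak lay 1.25 to 1.56 kb from the start and was that of Hist1h4m or Hist1h4n. For Hist1h2ba and Hist1h2aa it lay 164 kb away in replicate 1 and 169 kb in replicate 2. The third testis-type gene, Hist1h1t, was counted with folds of 10.6 and 16.4 through a peak whose summits lay 398 and 187 bp after the start of Hist1h4c and over 2 kb from its own start. In replicate 2 it also had a small peak of fold 4.93 of its own.

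Repeated sequence differed sharply among these genes. Around each start, every 100-base word within 1 kb was looked up in the genome on both strands. At Hist1h2bq, Hist1h2ao, Hist1h2ap and Hist1h2br, 100% of words occurred more than once. The printed promoters of Hist1h2bq and Hist1h2br were offset by 2 bases and identical over the 298 bases they share. Those of Hist1h2ao and Hist1h2ap were offset by 30 bases and identical over 270. At the testis-type pair the share was 4.2%. Members with a peak had a median of 11.6%, from 0 to 84.9%. Their highest shares were at Hist1h4m (84.9%) and Hist1h4n (80.7%), with promoters 99.7% identical and the lowest folds of replicate 2. Hist2h3c1 (72.7%) and Hist2h3c2 (71.7%), with Hist2h2aa2 (50.8%) and Hist2h2aa1 (47.9%), shared a peak of 16.3 and 18.7 with summits beside Hist2h2aa1. How reads from repeated sequence were placed was not given in the sources used here, so values at these 10 members may be split between copies, and the part of repeats in the missing peaks was not tested.

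**Figure D5:**
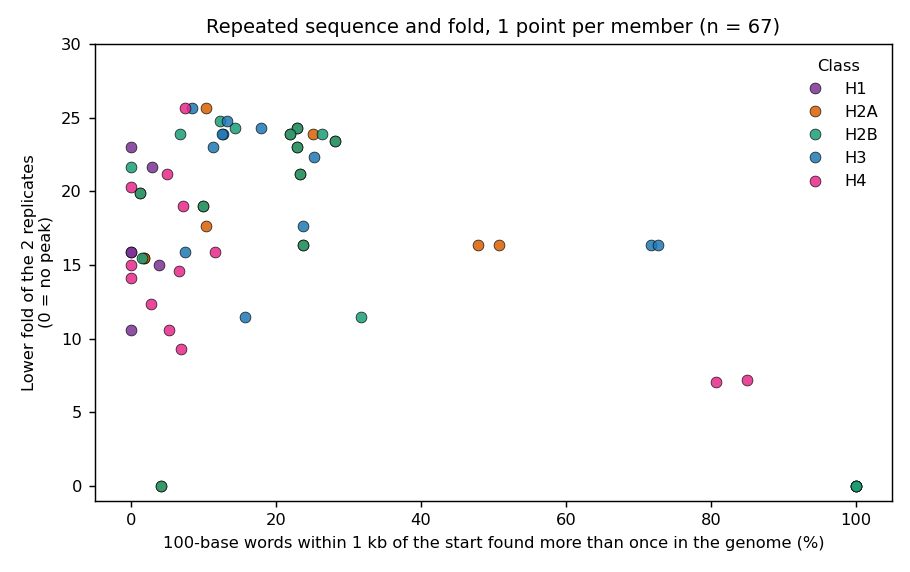
Share of 100-base words within 1 kb of the start that occur more than once in the genome (%) against the lower fold of the 2 Foxr2_p53LOF replicates, with 1 point per member coloured by class and members without a peak at 0. The members at 100% have no peak, Hist1h4m and Hist1h4n at 84.9 and 80.7% have the lowest folds, and the testis-type pair at 4.2% also has no peak.

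Histone promoters differed in composition from promoters at large. Over the 300 bases around the 5′ end of the gene record, median GC content was 45.3% at the members and 55% at all protein-coding genes, with observed-to-expected CpG of 0.75 and 0.524. Of non-histone genes with a GC content between the members' quartiles (42.3 to 49.8%), 28.5% had a peak in both replicates, against 29 of the 34 members in that range (85.3%). The members without a peak had a median GC content of 49.2%.

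In all 9 motifs were searched by their exact letters on both strands in the same 300 bases. The CCAAT box, the site of the NF-Y factor, was in 56 of 67 members (83.6%) against 39.0% of all genes, including every H2A and H2B member, 11 of 12 H3, 5 of 6 H1 and 4 of 13 H4. The ATTTGCAT octamer, which Pou2f1 binds, was in 15 (22.4%) against 1.57%, with 7 at H2A and 8 at H2B genes and 0 elsewhere. The windows of pair partners overlap, so 1 match can count for both: the 15 members held 10 distinct octamers, and the 56 members with a CCAAT box held 111 distinct matches, 41 of them in the windows of at least 2 members. The AAACACA H1 box was in 9 (13.4%) against 6.4%, with 4 of the 6 H1 genes among them. TATAAA was in 37 (55.2%) against 12.6%. Of the E2F motifs, TTTCCCGC was in 3 members (4.48%) against 1.34%, all H4 genes (Hist1h4a, Hist1h4d and Hist1h4k), and TTTGGCGC in 0 against 0.693%. At Hist1h4d and Hist1h4k the match lay after the start codon, within the coding sequence. The TGACGTCA cyclic AMP response element was in 4 (5.97%) against 2.43%, among them Hist1h4h, with 4 distinct matches of which 1 was shared by a pair. Gene records that open upstream or downstream of the main start shift these windows, and 11 members' records open at the start codon itself.

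For the forkhead and ETS families, 1 exact string each was searched, and other forms that these factors bind were not counted. CCGGAAG, an ETS core, was in 1 member (1.49%), Hist1h1e, against 10.8% of all genes. GTAAACA, a forkhead motif, was in 1 (1.49%), Hist4h4, against 3.05%. Both sequences are printed with the opening set. Among the 6 members without a peak, the CCAAT box was in all 6 and the octamer in 2, the testis-type pair. A match is a string of letters and not a measured site, and its absence says only that these letters are not in the window.

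The 3′ end signal was searched too, as GGCTCT, any 4 bases and the reverse complement of the stem, within 150 bases after the stop codon. It was found at 52 of 67 members, 22 to 59 bases after the stop. In Hist3h2a it reads as follows, with the stem arms at both ends.

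Hist3h2a stem-loop: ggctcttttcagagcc

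Of those 52 members, 46 had a peak in both replicates, where 91% of all members and 51.5% of all protein-coding genes had one. The 6 without were the pairs named above. The other 15, all 13 H4 genes with Hist1h2an and Hist2h2be, lacked these exact letters, and all 15 had a peak. A link between the stem-loop and peaks was not tested.

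Other protein-coding genes lay inside and between the blocks. Inside the blocks were Trim17, with the folds of the Hist3h peak (19.9 and 23.7), and Hfe, a regulator of iron uptake, with 3.98 and 6.57. Between the blocks of chromosome 13 lay 48 other protein-coding genes, of which 4 had a peak in both replicates, against 51.5% of all genes: Zfp184 (13.7 and 21.7), Zfp322a (15 and 23.3), Abt1 (14.1 and 53.6) and Btn1a1 (3.53 and 4.27). Of the 48, 36 were Vmn1r genes, a family of pheromone receptors, and 0 of those had a peak.

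Histone genes outside the clusters are mostly transcribed through the whole cell cycle, with polyadenylated mRNAs. Of 14 listed, 11 had a peak in both replicates, and all 11 kept a site through the filters, against 51.5% and 39.4% of all genes. H2afv, an H2A.Z gene, had the highest folds, 22.5 and 25.6. H2afz, the other H2A.Z gene, had 15.5 and 15.4, H1fx 17.2 and 15.1, H3f3a 11.5 and 16.1, and H3f3b 11.5 and 11.8. The 3 without were the germ-cell linker genes H1foo, with a peak of 4.42 in replicate 1 only, H1fnt and Hils1.

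The machinery that makes, processes and escorts histones had a peak at each of 39 listed genes, 35 of which kept a site, against 51.5% and 39.4% of all genes. Median folds were 9.28 and 13.5 for the transcription genes, 8.62 and 9.03 for those of 3′ processing and decay, and 11.5 and 11.8 for the chaperones, where the medians of all genes with a peak were 8.84 and 9.86. For transcription, Npat, the coactivator of the histone locus body, had folds of 7.51 and 11.5, Casp8ap2, another of its components, 7.95 and 10.5, Pou2f1 16.8 and 24.6, and Nfyc, an NF-Y subunit, 19.0 and 19.1. For 3′ processing, Slbp had the highest folds, 21.7 and 24.3, Lsm10 had 4.42 and 7.23, and Cstf2 5.3 and 5.59. Among chaperones, Chaf1a and Chaf1b, subunits of the replication-coupled assembly factor, had 6.19 and 9.53, and 6.19 and 7.88. Nasp, which holds the reserve of H3 and H4, had 19.4 and 25.3. Hjurp, the chaperone of the centromeric H3, had 76.9 and 104 and was the single gene of this list with a control peak, which removed its site. These lists were described and not tested.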

How the data were processed

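The authors trimmed reads with Trimmomatic 0.39, aligned them to mm10 with BWA 0.7.17, removed duplicates with Picard 2.26.6 and called peaks with MACS2 2.2.7.1, library by library, with HOMER 4.11 also among the tools in the submitters' processing notes. The deposited fold enrichment is a ratio over background, which MACS2 wrote for each summit. The deposited −log10 p and q values and the score come from the same step, and the score served no comparison here. Peaks numbered 31909 and 38580 in the Foxr2_p53LOF replicates and 308 and 124 in the V5_control replicates. The lists give no read totals.

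The background of each library (1.26, 2.04, 1.69 and 0.642 fragments, in the same order) was recovered from the folds, of which 100% up to 30 gave whole fragments (within 0.02) whose Poisson −log10 p matched the deposited value within 5% plus 0.05. Counting intervals are 95% exact Poisson intervals of the fragments at a summit, with the background held fixed, and cover counting error only. Genes came from GENCODE M21, and sequence from GRCm38.p6 (RefSeq). Peaks shared by several members were counted once per cluster. The step of the study that used open chromatin was not repeated. Work was done in Python 3.11.15 with NumPy 2.4.6 and SciPy 1.17.1, and tested on simulated data. Alternatives changed the window, the assignment of peaks to starts, the filters, the chromosome scaling, the promoter length and the replicates used. Members were taken by symbol, but this gene family, the gene lists and the motifs were picked for study with earlier results of these data known. The genes named are members, the lists of histone genes outside the clusters and of supply genes, and genes within or between the blocks. A symbol on the supply list, Mizf, matched no protein-coding gene of this release and was not counted.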

Additional observations from a re-analysis of the deposited data

How the results depend on the processing

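Of 55 alternatives, 46 left a value within its limits and 9 moved it. Members with a peak fell from 61 to 28 with the summit in the window and to 20 with a peak given only to the start nearest its summit. Members with a site moved from 22 to 14 with the nearest start only and to 61 with no length limit. Leaving out each replicate in turn gave 22 to 53 members with a site, the highest without Foxr2_p53LOF replicate 2, and 61 members with a peak throughout. Ratios of median folds moved to 1.79 and 2.03 with folds divided by the chromosome median. With 500 bases before the start, CCGGAAG was in 2 members and GTAAACA in 3. With the replicate number as a block, the difference between groups was still 61 members, with an exact permutation p of 0.5, the smallest this pairing can give. The numbers share no stated source, so the replicate pairing carries no further meaning. A window of 2 kb gave 65 members with a peak, and a minimum fold of 10 gave 58. Peak lists without read totals limit precision to the fragments at each summit, and shared peaks limit how far a fold belongs to 1 gene.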
